A study of Saccharomyces cerevisiae with 12 samples.

Results

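Budding yeast, Saccharomyces cerevisiae, makes no siderophores of its own but takes up iron that other microbes have bound with them, and 8 genes of that pathway were followed here. They were chosen by name from the 7150 genes of the deposited count table: FIT1 (YDR534C), FIT2 (YOR382W), FIT3 (YOR383C), ARN1 (YHL040C), ARN2 (YHL047C), SIT1 (YEL065W), ENB1 (YOL158C) and FRE3 (YOR381W). All 8 were found, and all 8 passed the filter on low counts with which 6171 genes were tested. The study sequenced 12 libraries, made after depletion of ribosomal RNA, of log-phase cells grown in YPD with 2% glucose at 30 °C. The title of the series poses the question of how the Cyc8-Tup1 corepressor and the Swi-Snf chromatin remodeller act against each other in transcription.

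The libraries fell into 4 groups by the genotype in the labels. The wild type (wt, n = 3) was BY4741, Mat a, with his3del1, leu2del0, met15del0 and ura3del0. The cyc8 libraries (n = 3) came from YAFTCD4, which is BY4741 with cyc8::KAN. The snf2 libraries (n = 2) came from FY2083, MATa, with his3del200, ura3del0, trp1-del63, lys2del0, met15del0 and snf2::LEU2. The cyc8 snf2 libraries (n = 4), called the double mutant below, came from YDB1.7, a derivative of FY2083 with snf2::LEU2 and cyc8::URA3. The strain background therefore moved with the snf2 label, and in any comparison across that label the effects of the strain and of snf2 cannot be told apart. The comparisons of cyc8 with wt and of the double mutant with snf2 each stayed within 1 background. Each group was 1 strain, and no label says that the replicates were grown apart, so a p-value here covers only the spread among libraries, which may be technical.

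FIT1, FIT2 and FIT3 encode mannoproteins of the cell wall that help to retain siderophore-bound iron near the cell. ARN1, ARN2 (also TAF1), SIT1 (also ARN3) and ENB1 (also ARN4) encode transporters of the major facilitator family that take up intact siderophores, with ferrichromes, triacetylfusarinine C, ferrioxamine B and enterobactin as their best known substrates in that order. FRE3 encodes a ferric reductase of the plasma membrane that acts on siderophore-bound iron. When iron is scarce, the activators Aft1 and Aft2 switch these genes on through promoter elements with the core CACCC. Cyc8 (also Ssn6) and Tup1 are brought to promoters by DNA-binding proteins and repress them, and Snf2 is the ATPase of Swi-Snf.

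The libraries held 16378131 to 27230568 counts. The transcripts of the mutated genes were not lost. CYC8 averaged 77.1 ± 6.47 CPM (counts scaled by library size, SD, n = 3) in wt and 59.3 ± 4.72 in cyc8 (n = 3), and SNF2 averaged 80.1 ± 8.21 in wt (n = 3) and 66.0 ± 0.933 in snf2 (n = 2). In the double mutant (n = 4) CYC8 averaged 53.2 ± 2.58 and SNF2 108.7 ± 4.42, the highest mean of SNF2. CYC8 averaged 61.5 in snf2, where no label names it as disrupted, and SNF2 79.6 in cyc8. The labels do not say which part of either gene is missing, so these counts do not check the deletions. LEU2, the marker of snf2::LEU2, averaged 483 CPM in snf2 and 269 in the double mutant against 0.0401 in wt and 0.102 in cyc8. The wt and cyc8 strains carry leu2del0, and no leu2 allele is named for FY2083, so the LEU2 counts do not check snf2::LEU2. URA3, the marker of cyc8::URA3, averaged 18.35 CPM in the double mutant and no more than 0.0139 in any other group. Replicates differed by more than counting noise in every group, so none was taken for a repeat of another.

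Every member lay near a chromosome end. In the R64 build, ARN2 was 8.2 kb from the left end of chromosome VIII (gene model at 8174 to 11025, minus strand) and ARN1 18.7 kb from the same end (18696 to 21174, minus). ENB1 was 19.1 kb from the left end of chromosome XV (19090 to 21654, minus), and SIT1 27.3 kb from the left end of chromosome V (27345 to 29757, plus). FIT1 was 26.4 kb from the right end of chromosome IV (1503065 to 1505484, minus). FRE3 (1054901 to 1057796, plus), FIT2 (1059214 to 1060128, plus) and FIT3 (1060241 to 1062089, minus) followed one another 29.2 to 33.5 kb from the right end of chromosome XV. The coding regions of FIT2 and FIT3 point toward each other with 448 bases between them. All 8 members were within 35 kb of an end, against 7.9% of all nuclear gene models. That limit lies just beyond FRE3, the farthest member at 33.5 kb. ARN1 and ARN2 share an end, as do FRE3, FIT2 and FIT3, so the 8 are not separate placements.

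The 7-base motif TGCACCC, an Aft1 element with the core CACCC, was sought on both strands in the 1000 bases before each coding region. All 8 members held it, and 4 of the 8 held it at least 2 times, against 283 of 5993 coding genes (4.7%) with a match and 22 (0.4%) with at least 2. Of the 18 other Aft1 targets and genes of reductive iron uptake listed here, 13 held it. FIT2 had 4 matches, FIT1, FIT3 and ENB1 had 2 each, and ARN1, ARN2, SIT1 and FRE3 had 1 each. The shorter GCACCC, which lies within TGCACCC, was found in all 8 members and 15.9% of coding genes, and the core CACCC, which lies within both, in all 8 and 58.1%. A match is a description of the sequence and does not show that a factor binds there. The match nearest the coding region of each gene is printed 5′ to 3′ on the strand that reads TGCACCC, with the motif in capitals and 10 bases on each side, from the RefSeq R64 genome.
FIT1, 176 bases before the coding region, plus strand of chrIV:1505066-1505092: ttcattttttTGCACCCtttcctagaa
FIT3, 178 bases before, plus strand of chrXV:1061223-1061249: cccattttttTGCACCCtttcctagaa
FIT2, 125 bases before, minus strand of chrXV:1059390-1059416: ctaattatacTGCACCCagttagattc
ARN1, 254 bases before, minus strand of chrVIII:21215-21241: tttatcaaaaTGCACCCataaaagcag
ARN2, 441 bases before, plus strand of chrVIII:10644-10670: aactaagaacTGCACCCattttctgat
SIT1, 182 bases before, minus strand of chrV:27459-27485: cgaaccagatTGCACCCtcaaatgtgt
ENB1, 131 bases before, minus strand of chrXV:21432-21458: ggcttacaatTGCACCCctctgtggct
FRE3, 421 bases before, plus strand of chrXV:1055108-1055134: ttttgtaaaaTGCACCCatatctcatt

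The windows of FIT1 and FIT3 shared a run of 25 bases that holds this match, at nearly the same distance from the 2 coding regions. No other pair of members shared a run in the same orientation of more than 14 bases. The printed match of ARN1 lay before the gene model of the count table, and the other 7 lay inside the models, which begin upstream of the coding regions.

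**Figure D1:**
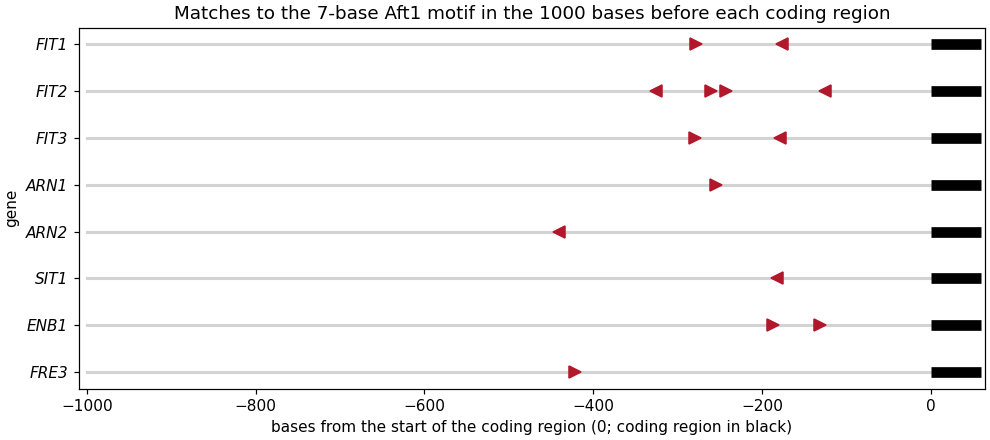
Matches to the 7-base Aft1 motif (red arrowheads, pointing right where the motif reads along the gene) in the 1000 bases before each coding region (black), drawn to scale by the distance in bases from the coding start. FIT2 has 4 matches, FIT1, FIT3 and ENB1 have 2 each, and the other 4 genes have 1 each.

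The cell wall mannoproteins were higher in cyc8 than in wt. FIT3 measured 95.75, 82.55 and 93.7 CPM in the 3 wt libraries, 1025, 2024 and 1226 in cyc8, 745 and 754 in snf2, and 399, 765.5, 713 and 793 in the double mutant. The wt libraries were below all others and the cyc8 libraries above all others, while the snf2 values fell within the range of the double mutant. FIT2 measured 72.4, 50.1 and 90.2 CPM in wt, 653, 1626 and 784 in cyc8, 175 and 188 in snf2, and 50.0, 60.6, 75.25 and 82.2 in the double mutant. Its cyc8 libraries were above all others, its snf2 libraries came next, and its wt and double mutant libraries overlapped. FIT1 was far lower than its relatives, with 6.82, 6.18 and 6.18 CPM in wt, 31.1, 21.9 and 24.7 in cyc8, 35.3 and 37.0 in snf2, and 26.35, 30.0, 23.6 and 28.5 in the double mutant. Here the wt libraries were below all others and the snf2 libraries above all others, while cyc8 and the double mutant overlapped.

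The transporters did not share 1 pattern. ARN1, the ferrichrome transporter, measured 49.7, 28.9 and 58.3 CPM in wt, 146, 224 and 145 in cyc8, 35.02 and 38.6 in snf2, and 18.4, 35.5, 28.9 and 37.7 in the double mutant. SIT1, the ferrioxamine B transporter, measured 94.95, 41.9 and 84.6 CPM in wt, 198, 267 and 178 in cyc8, 46.6 and 51.9 in snf2, and 20.4, 55.7, 34.2 and 66.4 in the double mutant. In both genes the cyc8 libraries stood above every other library, and the other 3 groups overlapped. ENB1, the enterobactin transporter, ran the other way, with 169.5, 129 and 121.5 CPM in wt, 39.9, 47.4 and 38.8 in cyc8, 46.3 and 48.4 in snf2, and 30.8, 35.8, 30.8 and 37.2 in the double mutant. Its wt libraries were above all others, its double mutant libraries below all others, and cyc8 and snf2 overlapped. ARN2, the transporter of triacetylfusarinine C, ranged from 30.0 to 59.5 CPM in wt, 32.3 to 34.35 in cyc8, 48.9 to 57.1 in snf2 and 21.1 to 36.05 in the double mutant, so that cyc8 lay within the range of wt.

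FRE3, the reductase, measured 21.6, 20.2 and 19.9 CPM in wt, 49.15, 34.65 and 40.2 in cyc8, 30.5 and 33.7 in snf2, and 30.0, 38.8, 34.8 and 34.6 in the double mutant. Its wt libraries were below all others, and the other groups lay close together.

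**Figure D2:**
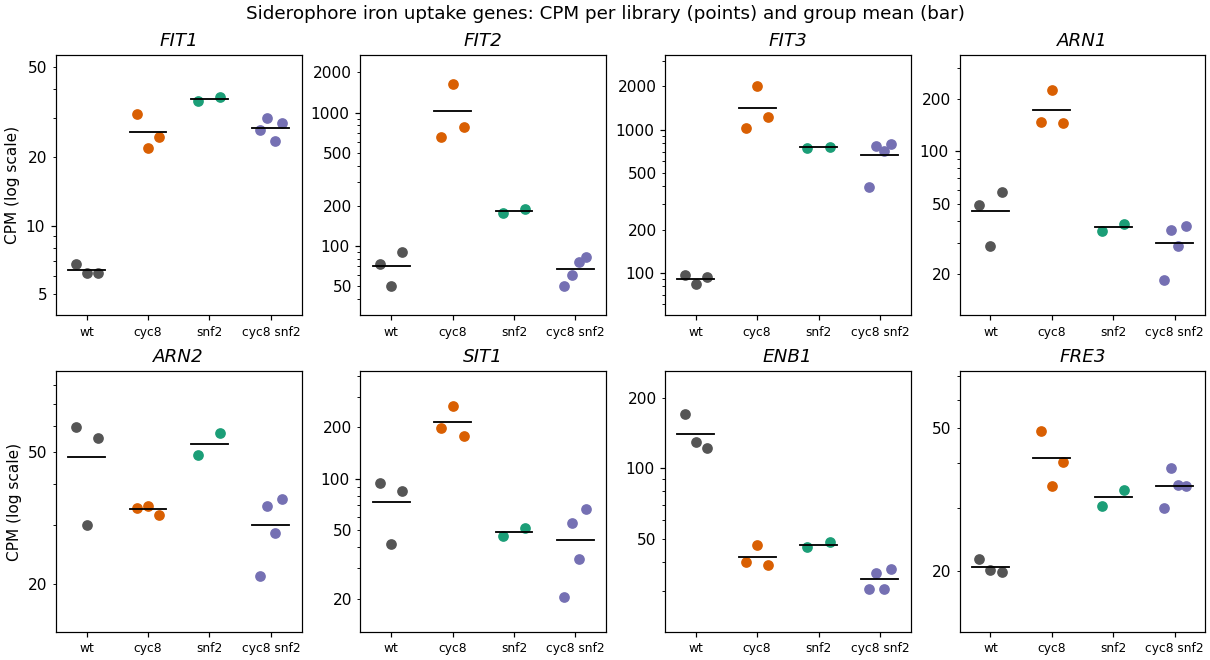
CPM of the 8 genes in each library (points) with the group mean (bar), on log axes that differ between panels, for wt (n = 3), cyc8 (n = 3), snf2 (n = 2) and the double mutant cyc8 snf2 (n = 4). FIT2, FIT3, ARN1 and SIT1 are highest in cyc8, FIT1 is highest in snf2 and ENB1 is highest in wt.

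Between cyc8 and wt, which asks what goes with the cyc8 label in the BY4741 background, 6 of the 8 genes rose and 1 fell. A gene was called at an adjusted p below 0.05 in the quasi-likelihood F test of edgeR (Benjamini-Hochberg over all 6171 genes) and a change of at least 2-fold, which is 1 on the log2 scale. Of all genes tested, 10.4% were called higher and 3.48% lower. FIT3 rose 15.7-fold (log2 fold change 3.97 ± 0.31 SE, edgeR adjusted p = 1.08e-06) and FIT2 14.4-fold (3.85 ± 0.37, adjusted p = 7.73e-06). FIT1 rose by 2.01 ± 0.14 on the log2 scale (adjusted p = 3.99e-08). Among the transporters, ARN1 rose by 1.91 ± 0.30 (adjusted p = 0.000395) and SIT1 by 1.54 ± 0.40 (adjusted p = 0.00939). ENB1 fell by 1.74 ± 0.13 on the log2 scale (adjusted p = 9.13e-08), the only member called lower. ARN2 had a log2 fold change of -0.53 ± 0.24 (adjusted p = 0.0912) and was not called. FRE3 rose by 1.00 ± 0.13 (adjusted p = 1.91e-05), on the edge of the 2-fold threshold. It measured 0.863 without cyc8 library 1, 0.99 without wt library 2 and 0.979 without wt library 3, all under 2-fold. The median log2 fold change of the 8 genes was 1.72, against -0.05 over all genes tested. A rise in every cell and a rise in part of the cells of a culture cannot be told apart in bulk RNA.

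With the snf2 label present, the change that goes with the cyc8 label was read within FY2083. Between the double mutant and snf2, none of the 8 genes was called higher by edgeR and 1, FIT2, was called lower, where 9.12% of all genes were called higher and 3.08% lower. In a set of 8, counts of 0 and 1 are not far from these shares, here and in the other comparisons. With p below 0.05 before adjustment there were 0 higher and 4 lower, while DESeq2 called 0 and 1 and limma-voom 0 and 1. FIT2 fell by 1.44 ± 0.34 on the log2 scale (edgeR adjusted p = 0.0051). Below 2-fold, but with an edgeR adjusted p under 0.05, FIT1 measured -0.41 ± 0.13 (adjusted p = 0.0181), ARN2 -0.82 ± 0.25 (adjusted p = 0.017) and ENB1 -0.49 ± 0.13 (adjusted p = 0.00793). The log2 fold change was -0.17 ± 0.28 for FIT3 (adjusted p = 0.658), -0.29 ± 0.32 for ARN1 (adjusted p = 0.483), -0.16 ± 0.42 for SIT1 (adjusted p = 0.788) and 0.11 ± 0.13 for FRE3 (adjusted p = 0.525). The median of the 8 was -0.35, against -0.03 over all genes.

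The difference between these changes was tested by the interaction, the log2 change of the double mutant over snf2 less the change of cyc8 over wt. It was called lower for 4 of the 8 genes and higher for 1, where 4.7% of all genes were called lower and 4.2% higher. FIT2 had the largest value, -5.29 ± 0.49 (edgeR adjusted p = 2.81e-05), since it was higher in cyc8 than in wt and lower in the double mutant than in snf2. FIT3 measured -4.14 ± 0.40 (adjusted p = 3.17e-05), FIT1 -2.43 ± 0.19 (adjusted p = 1.03e-06) and ARN1 -2.20 ± 0.43 (adjusted p = 0.0036). ENB1, which fell with the cyc8 label in BY4741 by more than in FY2083, had the opposite sign, 1.25 ± 0.19 (adjusted p = 0.000336). SIT1 measured -1.69 ± 0.57 and missed the threshold at an edgeR adjusted p of 0.052, but was called by DESeq2 (-1.71, adjusted p = 0.0365) and limma-voom (-1.88, adjusted p = 0.0361), and by edgeR without wt library 1, double mutant library 1 or double mutant library 4. FRE3 had an adjusted p of 0.00245 with a value under 2-fold, -0.90 ± 0.18, and reached -1.01 without cyc8 library 2. ARN2 measured -0.29 ± 0.35 (adjusted p = 0.591).

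**Figure D3:**
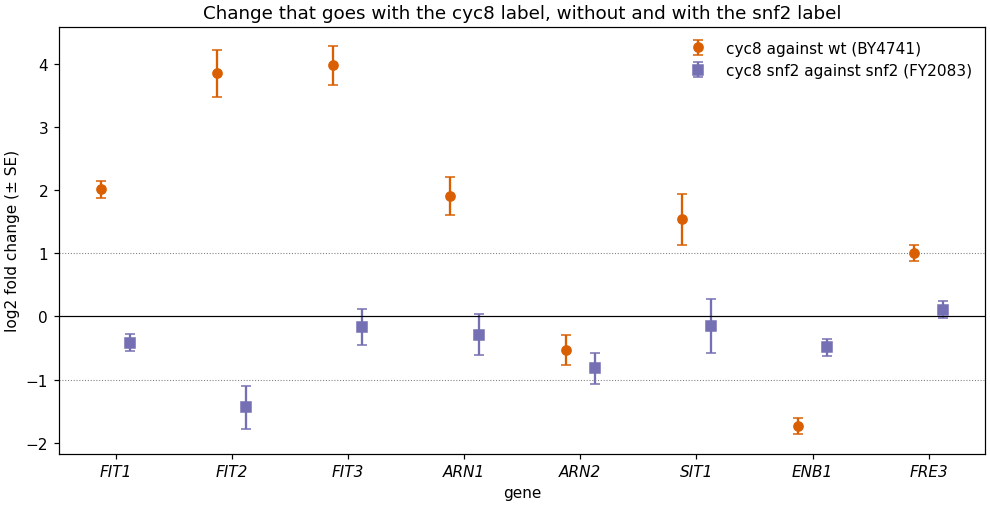
Log2 fold change (± SE from the edgeR F statistic) of each gene, with dotted lines at 2-fold. Orange circles show cyc8 against wt in BY4741, and purple squares the double mutant against snf2 in FY2083. In cyc8, FIT2 and FIT3 rose by 3.85 and 3.97, while in the double mutant no gene is above the upper dotted line and FIT2 is at -1.44.

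Between snf2 and wt, 3 of the 8 genes were called higher and 1 lower, where 4.25% of all genes were called higher and 5.4% lower. The 3 were the cell wall mannoproteins. FIT3 rose by 3.05 ± 0.31 on the log2 scale (edgeR adjusted p = 2.23e-05), FIT1 by 2.50 ± 0.15 (adjusted p = 2.99e-08) and FIT2 by 1.36 ± 0.36 (adjusted p = 0.0144). The call of FIT2 was lost without wt library 2 (1.16, adjusted p = 0.0597) and without either of the snf2 libraries (1.41, adjusted p = 0.0543, and 1.30, adjusted p = 0.0733). ENB1 fell by 1.57 ± 0.15 (adjusted p = 2.86e-06). FRE3 measured 0.64 ± 0.14 (adjusted p = 0.00261), under 2-fold. The transporters ARN1 (-0.31 ± 0.34, adjusted p = 0.511), ARN2 (0.13 ± 0.26, adjusted p = 0.733) and SIT1 (-0.58 ± 0.45, adjusted p = 0.35) were not called. The median of the 8 was 0.39, against 0.02 over all genes.

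Between the double mutant and cyc8, 4 of the 8 genes fell and none was called higher by edgeR, where 3.01% of all genes were called lower and 0.924% higher. With p below 0.05 before adjustment there were 0 higher and 6 lower, while DESeq2 called 0 and 4 and limma-voom 0 and 4. Their log2 fold changes were -3.93 ± 0.33 for FIT2 (edgeR adjusted p = 1.18e-05), -2.51 ± 0.28 for ARN1 (adjusted p = 0.000116), -2.28 ± 0.38 for SIT1 (adjusted p = 0.00186) and -1.09 ± 0.25 for FIT3 (adjusted p = 0.0123). FIT3 went under 2-fold without cyc8 library 2 (-0.75, adjusted p = 0.0488) or without double mutant library 1 (-0.91, adjusted p = 0.0109). FIT1 measured 0.07 ± 0.12 (adjusted p = 0.719), FRE3 -0.25 ± 0.12 (adjusted p = 0.141), ENB1 -0.32 ± 0.12 (adjusted p = 0.0799) and ARN2 -0.16 ± 0.23 (adjusted p = 0.668). The median was -0.71, against 0.01 over all genes.

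Against wt, the double mutant had 2 of the 8 genes higher and 1 lower, where 9.71% of all genes were called higher and 3.97% lower. FIT3 rose by 2.88 ± 0.28 on the log2 scale (edgeR adjusted p = 8.03e-06) and FIT1 by 2.08 ± 0.13 (adjusted p = 1.78e-08), while ENB1 fell by 2.06 ± 0.12 (adjusted p = 6.46e-09). FIT2 measured -0.08 ± 0.31 (adjusted p = 0.842). FRE3 (0.75 ± 0.12, adjusted p = 0.000155) and ARN2 (-0.69 ± 0.22, adjusted p = 0.0234) changed by less than 2-fold, and ARN1 (-0.60 ± 0.28, adjusted p = 0.0978) and SIT1 (-0.74 ± 0.37, adjusted p = 0.121) were not called.

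Between snf2 and cyc8, compared in order to rank the groups, edgeR called 3 of the 8 genes lower and none higher, where 10.9% of all genes were called lower and 3.37% higher. The share of higher genes among all called ones was 23.7% and became 35.8% with upper-quartile scaling, which moved the median of all genes by 0.17 on the log2 scale. FIT2 (-2.49 ± 0.40, adjusted p = 0.000472), ARN1 (-2.22 ± 0.36, adjusted p = 0.000432) and SIT1 (-2.12 ± 0.48, adjusted p = 0.00395) were lower in snf2. Before adjustment p was below 0.05 for 2 higher and 5 lower genes, while DESeq2 called 0 and 3 and limma-voom 0 and 3. The contrasts that share a group share its libraries, so their values for a gene are not independent of each other.

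Ranked by mean level, with neighbours said to differ at an edgeR adjusted p below 0.05 the genes fell into several orders. FIT2 was highest in cyc8, then snf2, then wt and the double mutant, which were not distinguished. FIT3 was highest in cyc8, then snf2 and the double mutant without a difference between them, then wt. FIT1 was highest in snf2, then in the double mutant and cyc8 without a difference between them, then in wt. ARN1 and SIT1 were highest in cyc8, with no neighbours distinguished among wt, snf2 and the double mutant. ENB1 was highest in wt, with no neighbours distinguished among snf2, cyc8 and the double mutant. FRE3 was lowest in wt, with no neighbours distinguished above it, and no neighbours were distinguished for ARN2. Groups that are not neighbours did differ at that threshold in these genes. FRE3 was lower in snf2 than in cyc8 (-0.36 ± 0.14, edgeR adjusted p = 0.0435). ENB1 was lower in the double mutant than in snf2 (adjusted p = 0.00793). ARN2 was lower in the double mutant than in snf2 (adjusted p = 0.017) and wt (adjusted p = 0.0234).

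Per kilobase of gene model, the levels of the genes can be set beside each other as far as the model lengths hold. The models of FIT2 and FIT3 have 915 and 1849 bases, for coding regions of 462 and 615. In plain CPM, FIT3 was above FIT2 in wt (means of 90.7 and 70.9) and in cyc8 (1425 and 1021). Their order per kb in these 2 groups thus rests on the model lengths. In wt, FIT2 was highest at 77.5 CPM per kb, then ENB1 at 54.6, FIT3 at 49.0, SIT1 at 30.6, ARN1 at 18.4, ARN2 at 16.9, FRE3 at 7.10 and FIT1 at 2.64. In cyc8, FIT2 stood at 1116 and FIT3 at 771 CPM per kb, followed by SIT1 at 88.9 and ARN1 at 69.2, and then ENB1 at 16.4. In snf2 the first gene was FIT3 at 405 CPM per kb, ahead of FIT2 at 198.5, with the other 6 genes between 11.1 and 20.4. In the double mutant FIT3 stood at 361 and FIT2 at 73.2 CPM per kb, with the others between 10.5 and 18.3. The model of FIT2 shares 177 bases with YOR381W-A on its own strand, and that of SIT1 shares 308 bases with HPA3, so reads of those stretches cannot be assigned and the levels of FIT2 and SIT1 are uncertain to that extent.

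FIT2 and FIT3 made up most of the pool in every group but wt. The summed level of the 8 genes was 389 to 570.3 CPM in wt, 2176 to 4279 in cyc8, 1163 to 1209 in snf2 and 596 to 1115 in the double mutant. These 2 genes gave 29.5 to 34.7% of the sum in wt, 77.1 to 85.3% in cyc8, 77.95 to 79.1% in snf2 and 75.3 to 81.3% in the double mutant. Although they are convergent neighbours, their balance differed between groups: the ratio of FIT2 to FIT3 counts was 0.607 to 0.963 in wt and 0.637 to 0.804 in cyc8, which overlap, but 0.235 to 0.25 in snf2 and 0.0792 to 0.125 in the double mutant. Each library with the snf2 label thus had fewer FIT2 counts per FIT3 count than each library without it. The ratio of ARN1 to ENB1 counts was 0.223 to 0.48 in wt, 3.66 to 4.72 in cyc8, 0.756 to 0.797 in snf2 and 0.599 to 1.01 in the double mutant, so the cyc8 libraries had the most ARN1 transcript relative to ENB1.

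Within groups the genes often lay on the same side of the group mean. All 8 were below it in wt library 2, cyc8 library 3, snf2 library 1 and double mutant library 1. All 8 were above it in wt library 1, snf2 library 2 and double mutant library 4. With 2 libraries in snf2, the deviations of 1 mirror those of the other, so they are not separate observations. The share of all genes on the same side was not computed, and an offset of whole libraries was not tested. In double mutant library 1 the median deviation of the 8 was -0.44 on the log2 scale and SIT1 was lowest at -0.97. In wt library 2 the median deviation was -0.30. Cyc8 library 2 was split: FIT2 was 0.79 above its group mean, while 2 genes, FIT1 and FRE3, were below theirs, the lower by 0.24. The transporters ARN1, ARN2 and SIT1 and the mannoproteins FIT2 and FIT3 were each lowest in library 2 of wt and library 1 of the double mutant.

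**Figure D4:**
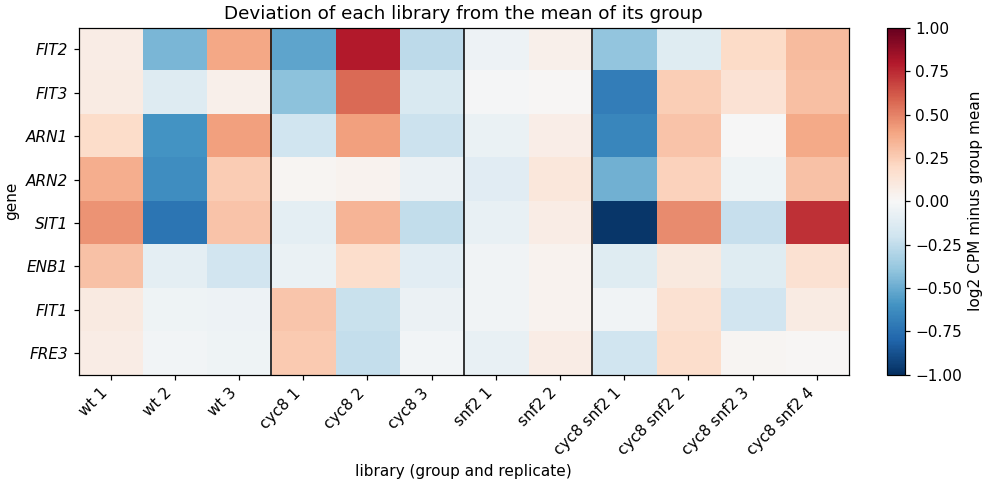
Deviation of log2 CPM from the group mean for each gene (rows) in each library (columns), red above and blue below the mean, with black lines between groups. Double mutant library 1 is below the mean in all 8 genes, and cyc8 library 2 is above it in FIT2 (0.79) but below it in FIT1 and FRE3.

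The genes beside the members were read for cyc8 against wt and for the double mutant against snf2. HPA3, a D-amino acid N-acetyltransferase gene before SIT1, rose in cyc8 by 1.92 ± 0.14 on the log2 scale (edgeR adjusted p = 5.22e-08). It measured 0.23 ± 0.14 in the double mutant against snf2 (adjusted p = 0.179), with an interaction of -1.69 ± 0.19 (adjusted p = 2.89e-05). FRE5, a putative ferric reductase gene next to FIT3, rose by 1.92 ± 0.15 in cyc8 (adjusted p = 1.44e-07) and measured 0.03 ± 0.15 in the double mutant against snf2 (adjusted p = 0.903), with an interaction of -1.90 ± 0.21 (adjusted p = 2.35e-05). HPA3 and FRE5 were already higher in snf2 than in wt, by 1.23 (edgeR adjusted p = 2.17e-05) and 1.68 (adjusted p = 3.14e-06). The models of FRE5 and FIT3 overlap by 564 bases on opposite strands, and the counting used the strand as far as nested models on opposite strands show. Other neighbours rose in both comparisons. HSP31 beside FIT1 rose by 4.19 in cyc8 and 3.40 in the double mutant, STL1 on the other side of FIT1 by 6.91 and 4.84, IMA2 beside ENB1 by 6.85 and 5.38, and PAU13 beside ARN2 by 12.15 and 5.70 (log2 fold changes). STL1 and PAU13 had few counts in the lower groups, so the size of their rises is less certain. STL1 averaged 0.392 CPM in wt and 0.731 in snf2, and PAU13 0.687 and 0.957. On the other sides, CSS3 beside ENB1 measured -0.30 (adjusted p = 0.0252) and COS8 beside ARN2 -0.29 (adjusted p = 0.42) in cyc8 against wt. In cyc8, ENB1 fell and ARN2 was not called, while the neighbour on 1 side of each rose and that on the other was not called. The other neighbours, RDR1, YOR381W-A, YHL041W, EFM1 and AVT2, and also COS8 and CSS3, were called in neither comparison.

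The genes of reductive iron uptake and other Aft1 targets form a list of 18. In cyc8 against wt, edgeR called 4 of the 18 higher and 1 lower, beside 10.4% and 3.48% of all genes, with a median log2 fold change of -0.36 against -0.05 over all genes. The 1 lower call is near the share over all genes. FRE4, a reductase gene for siderophore iron, rose 67.0-fold from 5.76 ± 1.92 CPM in wt (SD, n = 3) to 388 ± 50.5 in cyc8 (n = 3; edgeR adjusted p = 2.45e-05). FTR1, the iron permease, rose by 1.56 ± 0.27 on the log2 scale (adjusted p = 0.000765), FET3, the multicopper oxidase that works with it, by 1.18 ± 0.39 (adjusted p = 0.028), and FRE5 as given above. TIS11, also CTH2, which promotes decay of transcripts of iron-using proteins, fell by 1.27 ± 0.32 (adjusted p = 0.00712). In the double mutant against snf2, 1 of the 18 was called higher and 6 lower, beside 9.12% and 3.08% of all genes, with a median of -0.71 against -0.03. The 1 higher call is near the share over all genes, and the 6 lower calls are above it. FRE4 rose by 2.47 ± 0.63 (adjusted p = 0.00797), a call that was lost when the groups were fitted alone and without either of the snf2 libraries. The 6 that fell included TIS11 (-2.84 ± 0.34, adjusted p = 4.18e-05), FRE1, the main surface reductase (-2.36 ± 0.52, adjusted p = 0.00335), and HMX1, heme oxygenase (-1.27 ± 0.18, adjusted p = 7.4e-05), and the other 3 lay between -1.24 and -1.05. Between snf2 and wt, 4 of the 18 were called higher and none lower, beside 4.25% and 5.4% of all genes: FRE4 (2.29), FRE5 (1.68), FTR1 (1.23) and COT1 (1.09). Before adjustment p was below 0.05 for 13 higher and 0 lower genes, DESeq2 called 4 higher and 0 lower and limma-voom 3 and 0, and the count of edgeR was 2 without wt library 2 or without snf2 library 2. The interaction was called lower for 4 of the 18, FRE4 at -3.60, FRE5 at -1.90, TIS11 at -1.57 and FTR1 at -1.48, and for none higher, beside 4.7% and 4.2% of all genes. It was called lower for 2 of the 18 without snf2 library 2, and for 3 to 6 with any other library left out. At an unadjusted p below 0.05 the interaction counts were 0 higher and 13 lower, and DESeq2 called 0 and 4, limma-voom 0 and 5.

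**Figure D5:**
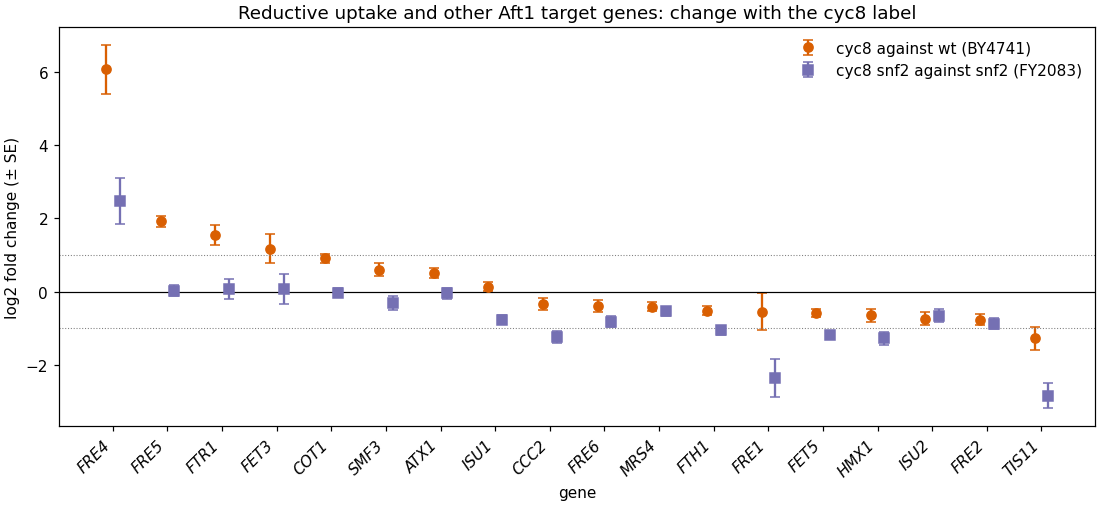
Log2 fold change (± SE from the edgeR F statistic) of the 18 genes of reductive iron uptake and other Aft1 targets. Orange circles show cyc8 against wt, which sets the order, and purple squares the double mutant against snf2. FRE4 is highest in both, at 6.07 and 2.47, and TIS11 is at -1.27 and -2.84.

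The activator gene AFT1 averaged 28.6 ± 6.07 CPM in wt (SD, n = 3), 18.6 ± 1.43 in cyc8 (n = 3), 40.1 ± 1.44 in snf2 (n = 2) and 17.3 ± 3.67 in the double mutant (n = 4). It measured -0.62 ± 0.18 in cyc8 against wt (edgeR adjusted p = 0.0116), under 2-fold, and fell by 1.21 ± 0.18 in the double mutant against snf2 (adjusted p = 0.000129). AFT2 averaged 17.4, 12.6, 22.7 and 17.4 CPM in the same order of groups. Of the 11 iron regulators none was called by edgeR, DESeq2 or limma-voom in cyc8 against wt, although p before adjustment was below 0.05 for 4 higher and 4 lower genes. In the double mutant against snf2, CCC1, the vacuolar iron importer, was called higher at 1.00 ± 0.20 (adjusted p = 0.00131) and AFT1 lower. CCC1 stood on the edge of 2-fold, and limma-voom called none of the 11 higher there, though DESeq2 called 1.

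Other lists give the setting, each as calls in cyc8 against wt and then in the double mutant against snf2. Among all genes 10.4% were called higher and 3.48% lower in the first and 9.12% and 3.08% in the second, so 1 or 2 higher calls in a list of 6 or 8 are not far from these shares. Of 2 low-affinity uptake genes, FET4 rose by 1.90 ± 0.25 on the log2 scale (edgeR adjusted p = 9.84e-05) in the first, and none was called by edgeR, DESeq2 or limma-voom in the second, where 2 were higher at an unadjusted p below 0.05. Of 2 relatives of the ARN transporters 1 was tested: GEX2, a glutathione exchanger, rose by 2.41 ± 0.36 (adjusted p = 0.000147) and then was not called by any of the 3 tools, nor at an unadjusted p below 0.05. Its near-identical copy GEX1 had almost no counts. How reads that match both copies were counted is not known, so GEX2 is uncertain. Of 6 copper and other reductase genes 2 fell in each comparison, FRE7 in both (-1.66 and -3.37). Of 8 heme synthesis genes 2 rose in each, HEM13 (3.34 and 4.07) and HEM14 (1.21 and 1.34). Of 8 Tup1-Cyc8 partners and readouts 2 rose in each, FLO1 (7.40 and 1.49) and SUC2 (5.59 and 1.60). Of 6 zinc genes ZPS1 rose in the first (1.85), and none was called by the 3 tools in the second, although p before adjustment was below 0.05 for 1 higher and 3 lower genes. Of 6 mating type markers 4 fell in each comparison and 1 rose in the second. STE2, the receptor of MATa cells, averaged 553, 148.5, 284 and 138 CPM in wt, cyc8, snf2 and the double mutant. The 1 that rose was MFA2, also a gene of MATa cells, with 1026, 765, 210 and 518 CPM in that order. STE3, a gene of alpha cells, fell in both, with 3.16, 0.765, 9.23 and 0.298 CPM, so the calls did not follow mating type. Of the 5 strain markers tested none was called by the 3 tools in the first, with 3 higher at an unadjusted p below 0.05, and URA3 rose in the second.

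Pearson's r of log2 CPM over the 12 libraries was used to find genes with a like pattern among the 4758 tested genes whose mean reached 10 CPM. The libraries share their group means, so r describes these 4 groups and carries no test. The mean pattern of the 8 genes was most like those of SFA1 (r = 0.921), SRO9 (0.921), HBT1 (0.900), FET3 (0.887) and HSP150 (0.879). The 8 genes did not all share that mean pattern, since ENB1 had r of -0.909 with FIT1, -0.849 with FIT3 and -0.843 with FRE3. Among the members themselves, ARN1 and SIT1 were most alike (0.977), FIT2 was nearest to ARN1 (0.922), FIT3 and FRE3 were nearest to each other (0.902), FIT1 was nearest to FIT3 (0.885), and ARN2 and ENB1 were nearest to each other at only 0.563. Outside the members the nearest genes were LYP1 for FIT1 (0.987), PHO12 for ENB1 (0.985), HPA3 for FIT3 (0.973), YPR196W for FRE3 (0.958), SFA1 for FIT2 (0.954), TIM11 for ARN1 (0.944) and SIT1 (0.938), and AFT1 for ARN2 (0.922).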

How the data were processed

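Paired-end reads came from 12 yeast libraries depleted of ribosomal RNA, per the labels' protocols. The authors deposited raw counts per gene, made with tools that include STAR and featureCounts on R64, with deepTools also named, per the submitters' processing notes. Their settings, and any use of strand, were not given in the sources used here. Of the 7150 genes, the 12 ribosomal RNA genes (2 counts, 7.73e-07% of all) entered neither library sizes nor tests, and 4 emptied lines were not used. Identifiers of 6441 genes matched the RefSeq annotation of R64. All 115 models nested in a same-strand model had 0 counts, whereas 79 of 80 named coding models nested only in an opposite-strand model had counts, as strand-specific counting would give.

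Here the counts were tested in R 4.3.3 with edgeR 4.0.16 (quasi-likelihood F test, robust dispersions, TMM scaling, filterByExpr) in 1 fit of all 12 libraries, with groups from the genotype labels. DESeq2 1.42.0 and limma 3.58.1 (voom) were alternatives, beside other scalings, filters and thresholds, a replicate block, fits of the compared groups alone and leaving out each library. Each SE of a log2 fold change was derived as its absolute value divided by the square root of the F statistic of edgeR. CPM values use TMM library sizes, and CPM per kb divides by the gene model length in the table. A gene at 0 could have up to 3 counts, which covers counting error only. The steps were tested on simulated counts. Motifs and positions were read from the R64 genome.

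The members and the lists were chosen with earlier results of these data known. The lists are reductive uptake and other Aft1 targets, iron regulators, low-affinity uptake, copper genes and other reductases, relatives of the ARN transporters, heme synthesis, Tup1-Cyc8 partners and readouts, zinc genes, mating type markers and strain markers. The rule for named genes took all members, up to 4 called genes of each list by size of change, genes needed as checks, the neighbours of each member, the 5 genes (mean of 10 CPM or more) most like the mean of the members, and for each member the most alike other gene. FET3 in the list of 18 was named beyond the 4.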

Additional observations from a re-analysis of the deposited data

Results flagged for a closer look

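For 5 of the 8 genes the change that goes with the cyc8 label differed between the strains without and with the snf2 label, as tested by the interaction in edgeR. Its log2 value was -5.29 for FIT2, -4.14 for FIT3, -2.43 for FIT1, -2.20 for ARN1 and 1.25 for ENB1. FIT1, FIT3 and ENB1 already differed from wt in snf2, by 2.50, 3.05 and -1.57 on the log2 scale, and FIT2 by 1.36. ARN1 did not pass the test there, at -0.31. The strain background moves with the snf2 label, so the strain and snf2 cannot be told apart in these values. In the double mutant, the only group of 4, library 1 stood apart from the other 3 for FIT3 on the log2 scale: its gap to the nearest was 0.846 of the range of the group, past Dixon's 95% critical value, while on the CPM scale the ratio was 0.797 and not past it. Chance gives such a gap in about 1 of 20 groups, and both scales were tested for all 8 genes. Without this library FIT3 measured 0.015 in the double mutant against snf2 and was no longer called against cyc8 (-0.91). The other 7 genes had no such library on either scale.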

How the results depend on the processing

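Of 1336 values under other settings, 1289 kept their direction and their side of the threshold, 19 lost the call, 21 gained one and 7 changed sign, all 7 in genes that were not called. The settings that change only the threshold reuse the values of the main fit, so no direction could change in them. In cyc8 against wt, a threshold of 4-fold (log2 of 2) cut the members called from 6 to 3 higher and from 1 to 0 lower. The counts fell to 2 higher and 0 lower in snf2 against wt, and to 0 lower in the double mutant against snf2. They also fell to 3 lower in the double mutant against cyc8 and to 0 higher in the interaction. With the adjusted p alone they rose to 4 higher in snf2 against wt and 4 lower in the double mutant against snf2. They rose to 3 higher and 2 lower in the double mutant against wt. In snf2 against cyc8 they rose to 1 higher and 5 lower, and in the interaction to 5 lower. Over all genes, cyc8 against wt gave 640 higher and 215 lower, 1413 and 1477 with the adjusted p alone, and 294 and 70 at 4-fold. Leaving out each library gave 5 to 6 members higher in cyc8 against wt, 2 to 3 higher in snf2 against wt, 3 to 4 lower in the double mutant against cyc8, 3 to 4 lower in snf2 against cyc8, and 4 to 5 lower in the interaction. The sign changed for ARN2 in snf2 against wt without wt library 2 (-0.11; up to 0.311 with another library left out), for FIT3 (0.015, lowest -0.24 over the libraries left out) and SIT1 (0.084, lowest -0.40) in the double mutant against snf2 without double mutant library 1, for FRE3 there with upper-quartile scaling (-0.02), for FIT1 in the double mutant against cyc8 without cyc8 library 2 (-0.038, highest 0.22), and for FIT2 in the double mutant against wt without wt library 3 (0.126) or double mutant library 1 (0.034, lowest -0.28). FRE3 in cyc8 against wt was under 2-fold with upper-quartile scaling (0.881) and limma-voom (0.981). Under upper-quartile scaling the median over all genes shifted by -0.12 in cyc8 against wt and -0.13 in the double mutant against snf2. FIT3 in snf2 against cyc8 was called without cyc8 library 1 or 3. Without cyc8 library 2 the rise of FIT2 in cyc8 against wt was 3.34. The replicate block gave 6 members higher and 1 lower in cyc8 against wt and changed no count of members called in any comparison; samples of the same number correlated at -0.135 to 0.21 in their deviations, so the numbers pair nothing. The cause of each change above was not tested. The 2 libraries of snf2 limit every contrast with it, and with 1 left out the lone sample is assumed to vary like the other groups.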
